A study of Mus musculus with 8 samples.

Results

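The genes described here encode the proteins of the ribosome that works in the cytosol and of the ribosome that works inside mitochondria. They were taken as all array probes whose single gene symbol begins with Rpl or Rps and a number (kinases of the Rps6k family left out), is Rplp0, Rplp1, Rplp2 or Rpsa, or begins with Mrpl or Mrps and a number. This gave 123 genes on 169 probes, of 9030 named genes and 20794 probes on the array. Of the 123 genes, 38 belong to the cytosolic large subunit, 24 to the cytosolic small subunit, 38 to the mitochondrial large subunit and 23 to the mitochondrial small subunit, as sorted by symbol. The symbol rule took in Rps19bp1, whose product binds a small-subunit protein and is no subunit itself, and Mrps36, now placed in an enzyme complex of the citric acid cycle.

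Livers of 4 Abcb4-/- males of strain Balb/cByJ, 17 weeks old, gave the RNA that was hybridised to cDNA arrays carrying 2 dyes. Abcb4 is the canalicular membrane protein that delivers phosphatidylcholine to bile, and the study profiled the liver that lacks it. Every mutant was set against 1 pool of liver RNA from wild-type males of the same strain and age, described as 4 animals in the sample labels and as 6 in the labelling protocol. Each mutant has 2 arrays, 1 with its RNA in Cy5 and 1 with its RNA in Cy3, called its Cy5 and Cy3 arrays below. The 2 columns of mouse 1 sum to 0 within 0.012 on all 20577 probes, so they hold 1 hybridisation under both signs, and mouse 1 was left out of every mean and test. What follows rests on 6 arrays of mice 2, 3 and 4, with the Cy5 column of mouse 1 given beside them as a description.

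Values are log2 ratios, likely of mutant over pool, though no label states the direction of the columns. A ratio shows no level, so the tissue label could not be checked against the abundance of its markers. Of 12 hepatocyte markers 7 were measured, and 0 of them passed the threshold. The arrays held between 20577 and 20738 usable values, and their standard deviation over probes ran from 0.244 to 0.331 except on the Cy3 array of mouse 3, where it was 0.561. Values without it are given where it decides a result. The pool is a single control sample, so tests against a ratio of 0 hold no spread between wild-type animals, and in whole liver fewer cells of a type and less RNA per cell cannot be told apart.

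Each ribosome has a small subunit, which reads the mRNA, and a large subunit, which joins amino acids and passes the new chain through an exit tunnel. Cytosolic ribosomal proteins are made in matched amounts, and their mRNAs are known for a terminal oligopyrimidine motif, a C at the first base followed by an unbroken run of C and T, through which mTOR and Larp1 set their translation. Mitochondrial ribosomal proteins are encoded in the nucleus, imported, and assembled on RNA made from mitochondrial DNA to translate the membrane subunits of the respiratory chain. Hepatocytes, which secrete most plasma proteins and are dense in mitochondria, are rich in both.

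A run of C and T at the annotated start was found in a larger share of cytosolic genes than of all genes. For that reason 4 such starts are shown. In the RefSeq promoter table (GRCm38.p6), 108 of the 123 genes have an entry, 54 cytosolic and 54 mitochondrial. A C at the annotated start with at least 4 further C or T directly after it was present in 11 of the 54 cytosolic genes (20.4%). It was present in 0 of the 54 mitochondrial genes and in 3.01% of the 27025 genes in the table (2.51% of its 32851 promoters). At that share of all genes, 0 of 54 is not read as a lack. The match needs a start annotated to the exact base, which was not checked. The stretches run from 20 bases before the start to 30 after it, 5′ to 3′, and capitals mark the C and T run from the start. They are Rpl35 at chr2:39005102-39005151 (minus strand), Rps10 at chr17:27635215-27635264 (minus strand), Rps18 at chr17:33955636-33955685 (minus strand) and Rps6 at chr4:86857338-86857387 (minus strand).
Rpl35: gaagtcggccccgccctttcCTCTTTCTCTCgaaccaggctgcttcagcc
Rps10: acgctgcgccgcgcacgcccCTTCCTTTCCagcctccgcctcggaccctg
Rps18: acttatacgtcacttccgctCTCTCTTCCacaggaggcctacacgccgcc
Rps6: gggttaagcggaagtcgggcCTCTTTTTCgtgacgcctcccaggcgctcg
Rpl35 sits beside the mouth of the exit tunnel, Rps10 and Rps18 are proteins of the small subunit, and Rps6 is the substrate of the S6 kinases. A looser pattern was searched after these sequences had been seen, a C followed by at least 7 C or T anywhere within 50 bases of the start, on the strand of the gene. It was found in 44 cytosolic genes (81.5%), in 18 mitochondrial genes (33.3%) and in 32.0% of all genes (28.8% of promoters).

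Both sets of genes share a second feature, shown in 3 further promoters. The letters CCGGAAG, the core that ETS factors such as GABP bind, occurred on either strand of the 300-base window, from 250 bases before the start to 50 after it, in 22 cytosolic genes (40.7%) and 21 mitochondrial genes (38.9%). These letters were held by 9.93% of all genes listed there (8.86% of promoters). In the stretches below, from 50 bases before the start to 30 after it, capitals mark CCGGAAG or its reverse complement, and the positions are Rpl26 at chr11:68901516-68901595 (plus strand), Mrps12 at chr7:28741792-28741871 (minus strand) and Mrpl52 at chr14:54426859-54426938 (plus strand).
Rpl26: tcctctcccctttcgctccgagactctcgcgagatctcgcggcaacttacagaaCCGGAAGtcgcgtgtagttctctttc
Mrps12: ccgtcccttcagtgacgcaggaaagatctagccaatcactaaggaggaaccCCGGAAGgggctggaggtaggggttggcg
Mrpl52: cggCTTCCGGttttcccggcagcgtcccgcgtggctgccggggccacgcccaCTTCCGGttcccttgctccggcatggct
Rpl26 lies where the exit tunnel opens, and its stretch holds 1 copy, as does that of Mrps12, a protein of the decoding centre of the mitochondrial small subunit. The stretch of Mrpl52 holds 2 copies, both on the other strand. AAGATGG, the core of YY1 sites, which can overlap the ETS core by its AAG, was found in 16.7% of the cytosolic, 22.2% of the mitochondrial and 7.28% of all genes. TATAAA was present in 11.1%, 7.41% and 15.7% of them, and GCGCATGC, a core of NRF1 sites, in 5.56%, 9.26% and 3.05%. These 3 motifs were searched on both strands of the same window, and a match is a description of the letters only.

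The ratios of genes with and without these letters are given as a description. Among cytosolic genes the median ratio was 0.020 over the 11 with a C and T run at the start and -0.019 over the 43 without one. It was 0.011 with the ETS core and 0.0022 without it, and among mitochondrial genes 0.048 with it and 0.025 without it. The 10 cytosolic genes lacking the looser C and T pattern had a median of 0.111, against -0.0099 over the 44 that hold it. In mitochondrial genes the looser pattern went with the higher median, 0.0485 over 18 genes against 0.032 over 36. For YY1, TATA and NRF1 the cytosolic medians with and without the letters were 0.020 and 0.0040, -0.050 and 0.012, and -0.076 and 0.018. The mitochondrial ones were 0.060 and 0.032, 0.018 and 0.047, and -0.046 and 0.048, over 3 to 12 genes with the letters.

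Comparing mutant liver with the pool, 0 of the 123 ribosomal protein genes passed the threshold of an adjusted p of 0.05 in limma's moderated test over 16796 features, while 56 features (0.333%) did. At an unadjusted p under 0.05 the limma test took in 11 of the 123 (8.94%), against 9.92% of all features. The other fits also gave 0 members with a variance trend and robust estimation and 0 with an unmoderated test, and 1 member, Rpl36al, when all 6 arrays were fitted with a dye term and mice as a random block. In that block fit the correlation between arrays of the same mouse was estimated at 0.024, so the 6 arrays counted almost as separate replicates. It also called more features over the whole array, as given at the end, and 1 of 123 members lies near that share. Of the 11 genes, 10 had a ratio above 0 (6.71% of all features did so at this p), namely Rpl36al, Rpl4, Rplp0, Rps16, Rps24, Mrpl43, Mrpl46, Mrpl51, Mrpl52 and Mrps6. The remaining gene, Rpl27, had a ratio below 0 (3.21% of all features). The members' share at an unadjusted p lies near that of the whole array.

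A sign shared by all 6 arrays was found in few members. Above 0 on all 6 were 8 of 123 (6.5%), against 6.1% of all features, and 1 member, Rps12, was below 0 on all 6 (0.813% of members, 0.905% of all features). The 8 are Rplp0, Rpl36al, Rps4x, Rps16, Rps24, Mrpl43, Mrpl51 and Mrps6. Their single-array values are plotted together with those of Rpl27.

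**Figure D1:**
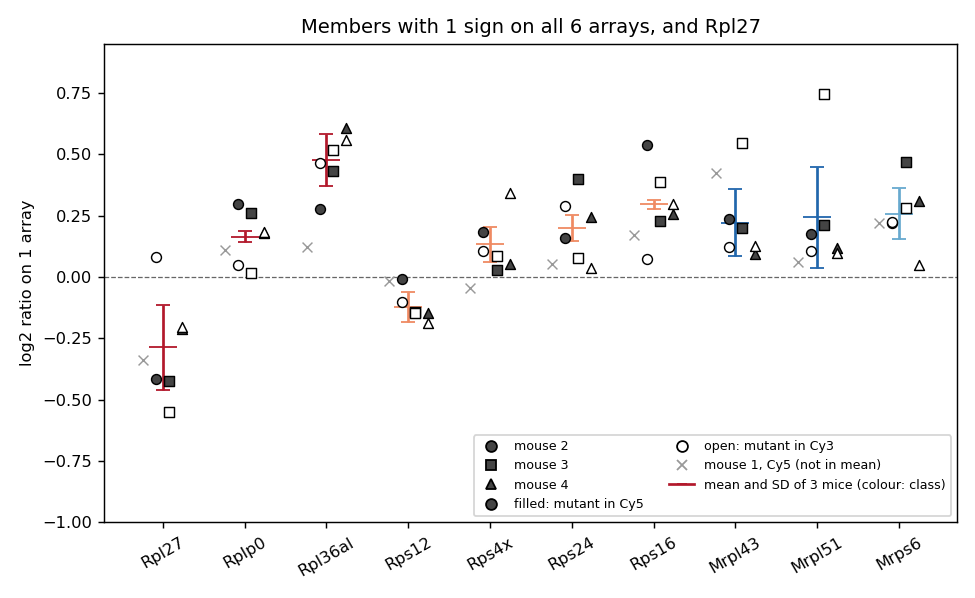
Log2 ratio on each array (vertical axis) for the 9 members with 1 sign on all 6 arrays and for Rpl27 (horizontal axis); filled symbols have the mutant in Cy5, open symbols in Cy3, grey crosses are the Cy5 column of mouse 1, and bars are the mean and SD of 3 mice. The values of Rpl36al run from 0.28 to 0.61, and the open square of Mrpl51, from mouse 3, stands at 0.745.

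In the cytosolic large subunit, Rpl36al had the highest ratio of all members with the columns as deposited, and a mean of -0.037 with the Cy3 columns turned. It encodes a close paralog of the X-linked Rpl36a, a protein near the exit site of the spent tRNA. Its log2 ratios were 0.28 and 0.46 in mouse 2 (Cy5, then Cy3), 0.43 and 0.52 in mouse 3, and 0.61 and 0.56 in mouse 4. All 6 values lay above 0, and the Cy5 column of mouse 1 also did, at 0.12. The mean was 0.48 ± 0.11 (SD, n = 3 mice), a 1.39-fold difference, with an adjusted p of 0.0685 in limma. In that fit with a dye term and a block, limma gave an adjusted p of 0.0183, and over all alternatives it ran from 0.0183 to 0.856. The block fit counted both arrays of a mouse almost as separate replicates. Rpl36a itself had values of -0.05, -0.38, -1.39, -0.23, 0.24 and 0.47 in the same order. The Cy5 array of mouse 3 stood lowest, the arrays of mouse 4 lay above 0, and the mean was -0.22 ± 0.58 (SD, n = 3 mice). The pair are close paralogs, so a cDNA probe of either may also bind mRNA of the other. Probe sequences were not read, and this was not tested.

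The stalk proteins were measured together. Rplp0 anchors the stalk that recruits elongation factors, and its ratios were 0.30 and 0.05 in mouse 2, 0.26 and 0.016 in mouse 3, and 0.18 and 0.18 in mouse 4. All lay above 0, with a mean of 0.16 ± 0.023 (SD, n = 3 mice) and an adjusted p of 0.499 in limma. Its 2 probes had means of 0.073 and 0.26, and the lower one was below 0 on the Cy3 arrays of mice 2 and 3, at -0.054 and -0.222. Rplp1 and Rplp2, which form the flexible tips of the stalk, had means of 0.034 ± 0.096 and 0.034 ± 0.060 (SD, n = 3 mice), with arrays on both sides of 0. The stalk thus showed no shared shift larger than the spread between mice.

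Rpl4, whose loop lines the exit tunnel, had ratios of 0.33, -0.079, 0.28, 0.32, 0.28 and 0.13, with a mean of 0.21 ± 0.088 (SD, n = 3 mice) and an adjusted p of 0.404 in limma. The lone negative value came from the Cy3 array of mouse 2. At the other end of the class stood Rpl27, a protein of the large subunit, at -0.42 and 0.083 in mouse 2, -0.43 and -0.55 in mouse 3, and -0.21 and -0.20 in mouse 4. Of its 6 values 5 lay below 0, as did the Cy5 column of mouse 1 at -0.34. The mean was -0.29 ± 0.17 (SD, n = 3 mice), with an adjusted p of 0.305 in limma, and without mouse 3 it was -0.19.

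Small-subunit genes of the cytosolic ribosome included Rps16, whose tail reaches the tRNA in the peptidyl site. Its ratios were 0.54 and 0.074 in mouse 2, 0.23 and 0.39 in mouse 3, and 0.26 and 0.30 in mouse 4. All 6 lay above 0, and averaging both dyes gave 0.31, 0.31 and 0.28 for the 3 mice. The mean of 0.30 ± 0.018 (SD, n = 3 mice) is a 1.23-fold difference, with an adjusted p of 0.190 in limma, and with Cy3 columns turned the mean was 0.044. Rps24, mutated in some families with Diamond-Blackfan anaemia, had ratios of 0.16, 0.29, 0.40, 0.077, 0.25 and 0.035. They gave a mean of 0.20 ± 0.053 (SD, n = 3 mice) and an adjusted p of 0.404 in limma. The 2 probes of Rps24 had means of 0.095 and 0.31. The lower one was below 0 on the Cy5 array of mouse 2 (-0.014) and the Cy3 array of mouse 3 (-0.082). Rps4x, the X-linked form of its subunit, had ratios of 0.18, 0.11, 0.029, 0.085, 0.054 and 0.34, with a mean of 0.13 ± 0.071 (SD, n = 3 mice). The Cy5 column of mouse 1 lay on the other side of 0 for Rps4x, at -0.044.

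Rps12, a protein of the beak of the small subunit, was the only one of the 123 below 0 on all 6 arrays. The ratios were -0.0075, -0.10, -0.14, -0.15, -0.15 and -0.19, with a mean of -0.12 ± 0.060 (SD, n = 3 mice) and an adjusted p of 0.644 in limma. Its 2 probes differed, with means of 0.0040 and -0.25, and neither was below 0 on all 6 arrays by itself. Rpsa, known also as a laminin receptor, had ratios of 0.27, -0.27, 0.15, 0.075, 0.038 and 0.24 and a mean of 0.084 ± 0.074 (SD, n = 3 mice). Rps19bp1, which regulates the deacetylase SIRT1, had a mean of 0.24 ± 0.34 (SD, n = 3 mice), with mice on both sides of 0, and 0.13 without the Cy3 array of mouse 3.

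Among large-subunit genes of the mitochondrial ribosome, Mrpl43 and Mrpl51, which encode proteins without a bacterial counterpart, lay above 0 on all 6 arrays. Mrpl43 had ratios of 0.24, 0.12, 0.20, 0.55, 0.094 and 0.13 and a mean of 0.22 ± 0.14 (SD, n = 3 mice), with an adjusted p of 0.419 in limma. Mrpl51 had 0.18, 0.11, 0.21, 0.745, 0.12 and 0.099 and a mean of 0.24 ± 0.20 (SD, n = 3 mice), with an adjusted p of 0.446 in limma. The highest value of both came from the widely spread array of mouse 3, and without that array their means were 0.16 and 0.15. Mrpl46 and Mrpl52, likewise specific to mitochondria, had means of 0.23 ± 0.080 and 0.23 ± 0.093 (SD, n = 3 mice), each with 5 of 6 arrays above 0. Without the Cy3 array of mouse 3 they were 0.12 and 0.23.

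In the mitochondrial small subunit, Mrps6, related to bacterial S6, had ratios of 0.22, 0.22, 0.47, 0.28, 0.31 and 0.050. The mean was 0.26 ± 0.10 (SD, n = 3 mice), with an adjusted p of 0.290 in limma. Its 3 probes had means of 0.59, 0.11 and 0.082, so 1 probe carried most of the value. The lowest values of Mrps10 and Mrps16 were those of the Cy3 array of mouse 4, at -1.04 and -1.09. Mrps16 was also low on the Cy5 array of mouse 4 (-0.91) and the Cy3 array of mouse 3 (-0.81). Without mouse 4 their means moved from -0.16 and -0.28 to 0.028 and 0.079. Mrps10 is also the member most touched by placeholders for a missing signal, on 3 arrays of 1 of its 2 probes. Mrpl17 had 1 such value, and 0 of the 93 cytosolic probes had any.

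The promoters of 4 of the members named above are shown to place their starts beside the ratios. Stretches again run from 50 bases before the start to 30 after it, capitals mark a C followed by at least 7 C or T, and the positions are Rpl36al at chr12:69184038-69184117 (minus strand), Rps16 at chr7:28350639-28350718 (plus strand), Rps12 at chr10:23787180-23787259 (minus strand) and Mrps6 at chr16:92058286-92058365 (plus strand).
Rpl36al: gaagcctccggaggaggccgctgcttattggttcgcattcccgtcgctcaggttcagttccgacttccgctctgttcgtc
Rps16: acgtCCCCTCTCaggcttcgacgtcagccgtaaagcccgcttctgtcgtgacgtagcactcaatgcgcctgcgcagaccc
Rps12: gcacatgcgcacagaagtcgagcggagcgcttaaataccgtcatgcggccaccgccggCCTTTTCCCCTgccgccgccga
Mrps6: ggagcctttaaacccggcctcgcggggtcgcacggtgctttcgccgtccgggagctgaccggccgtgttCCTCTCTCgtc
The C and T run is present in Rps12 just after the start, in Rps16 ahead of it and in Mrps6 after it. Rpl36al holds no such run in this stretch.

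By class and with the columns as deposited, the cytosolic large subunit had the lowest median ratio. With Cy3 columns turned it had the highest, 0.062 over the means of its genes, against 0.047, 0.021 and 0.011 in the cytosolic small, mitochondrial large and mitochondrial small subunits. On Cy5 arrays alone the mitochondrial small subunit was lowest, at 0.0093, against 0.052 in the cytosolic large one. As deposited, the median over the 38 cytosolic large-subunit genes was -0.048, -0.012 and 0.013 in mice 2, 3 and 4, a mean of -0.016 ± 0.030 (SD, n = 3 mice). The 24 cytosolic small-subunit genes had medians of -0.013, 0.108 and 0.048, a mean of 0.048 ± 0.061. Mitochondrial large-subunit genes stood at 0.0023, 0.102 and 0.031 (0.045 ± 0.051), and mitochondrial small-subunit genes at -0.0040, 0.092 and 0.087 (0.058 ± 0.054). Over all features tested the medians were -0.0064, 0.068 and 0.024, and mouse 2 stood lowest in every class. Set against all features in the same mouse, the classes lay at -0.044 ± 0.034, 0.019 ± 0.024, 0.017 ± 0.016 and 0.030 ± 0.030 in that order (SD, n = 3 mice).

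**Figure D2:**
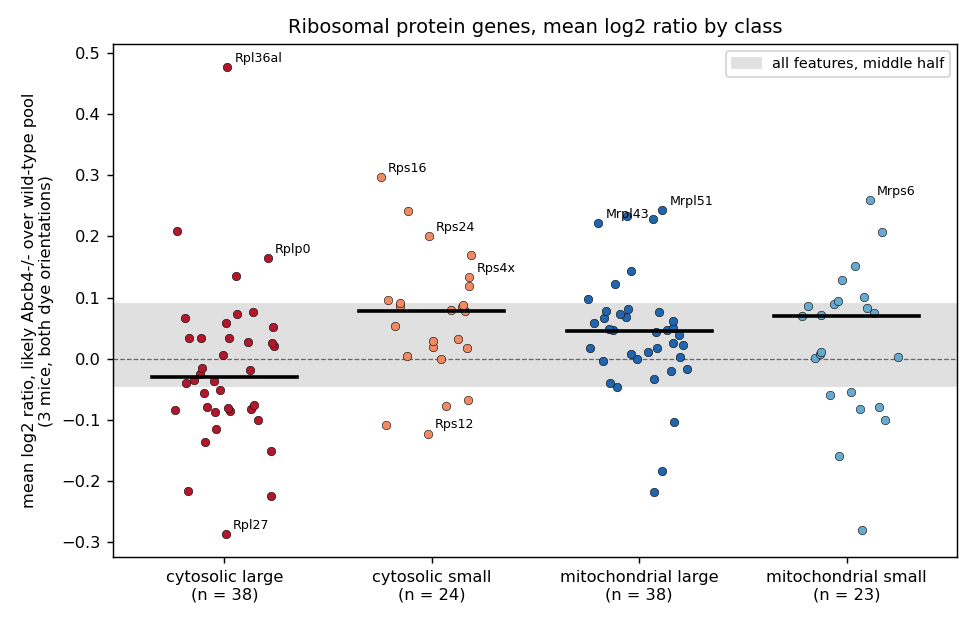
Mean log2 ratio of each member (vertical axis, 3 mice with both dye orientations averaged) by class (horizontal axis); black bars are class medians and the grey band holds the middle of all features from the lower to the upper quartile. The bar of the cytosolic large subunit is at -0.030 and the others are at 0.079, 0.045 and 0.069.

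Counts of signs were lowest in the same class, and ordered the other classes otherwise. The mean ratio was above 0 in 16 of 38 cytosolic large-subunit genes (42.1%), against 59.5% of all features. It was above 0 in 19 of 24 cytosolic small-subunit genes (79.2%), in 28 of 38 mitochondrial large-subunit genes (73.7%) and in 16 of 23 mitochondrial small-subunit genes (69.6%). With each array centred on its median the counts were 12, 15, 21 and 12, against 46.7% of all features. Leaving out the Cy3 array of mouse 3, they were 19, 17, 27 and 12, against 61.4% of all features, so that the mitochondrial small subunit (52.2%) stood beside the cytosolic large one (50.0%). With Cy3 columns turned the shares were 68.4%, 66.7%, 52.6% and 60.9%, against 64.1% of all features, and the cytosolic large subunit stood highest. These shares have no test, since genes of a ribosome are not replicates.

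Per mouse, the cytosolic median lay below the mitochondrial one by a small margin. The difference was -0.033, -0.036 and -0.014 in mice 2, 3 and 4, a mean of -0.028 ± 0.012 (SD, n = 3 mice). The arrays behind it split by dye. With the mutant in Cy5 the cytosolic median was the higher one, by 0.059, 0.039 and 0.012 (0.0025 in mouse 1), and with the mutant in Cy3 the lower one, at -0.084, -0.073 and -0.039. The sign of the difference thus followed the dye on all 6 arrays. Set against all features on the same array, the cytosolic median lay at 0.018, -0.011 and 0.0045 with the mutant in Cy5 (mice 2, 3 and 4). In Cy3 it lay at -0.028, -0.016 and -0.013. The mitochondrial median lay at -0.0405, -0.05 and -0.007 in Cy5 and at 0.0555, 0.0565 and 0.026 in Cy3. It was the farther from all features on each of these 6 arrays. The dye difference with means over members is given at the end. With the Cy3 columns turned in sign, as the direction of the columns is not stated, the mean difference was 0.030, and without the Cy3 array of mouse 3 it was -0.0024.

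Within the cytosolic ribosome, the large-subunit median lay below the small-subunit median in every mouse, with differences of -0.034, -0.121 and -0.035 and a mean of -0.063 ± 0.049 (SD, n = 3 mice). All 3 arrays with the mutant in Cy3 gave a negative difference, at -0.116, -0.138 and -0.091. Those with the mutant in Cy5 gave -0.084 in mouse 2 and 0.047 and 0.049 in mice 3 and 4, with 0.049 in mouse 1. Using Cy5 arrays alone the mean was 0.0038, and without the Cy3 array of mouse 3 it was -0.0077. Turning the Cy3 columns gave 0.048. In the mitochondrial ribosome, large minus small was 0.0063, 0.010 and -0.056, a mean of -0.013 ± 0.037 (SD, n = 3 mice), and arrays of either dye lay on both sides of 0.

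**Figure D3:**
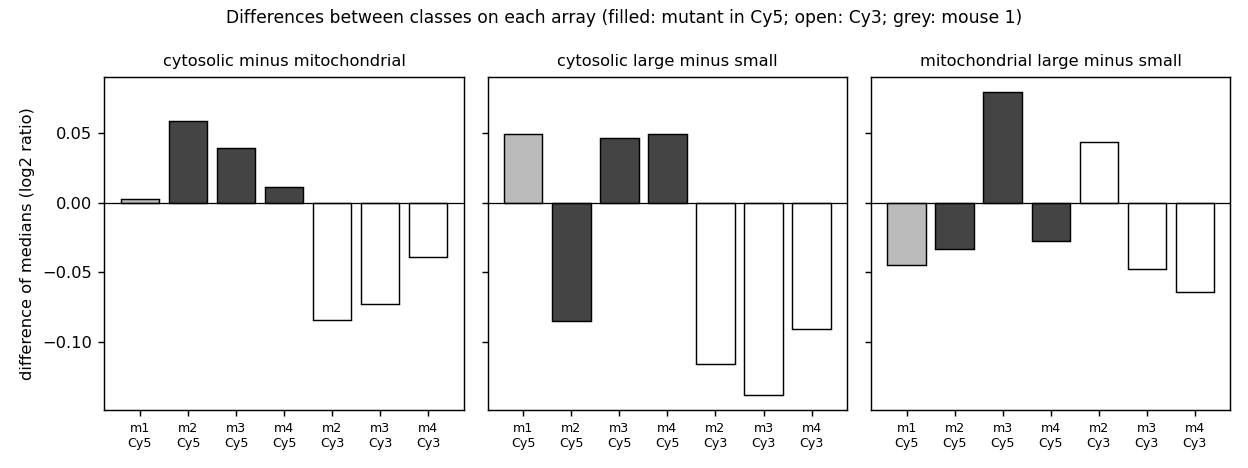
Difference between the medians of 2 classes (vertical axis, log2 ratio) on each array (horizontal axis), with dark bars for the mutant in Cy5, white for the mutant in Cy3 and grey for mouse 1. In the left panel the 3 dark bars are above 0, up to 0.059, and the 3 white bars below 0, down to -0.084.

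The dye itself was compared gene by gene, as the ratio with the mutant in Cy5 minus that with it in Cy3 in the same mouse. In limma 0 of 123 members passed the adjusted threshold, against 26 of 16796 features (0.155%), and the fits with a variance trend or without moderation also gave 0. At an unadjusted p under 0.05 limma took in 14 members (11.4%), against 14.2% of all features. The Cy5 value was the higher one in 13 of them (13.2% of all features) and the lower one in 1, Rpl41 (1.05% of all features). Cytosolic large-subunit genes made up 10 of the 14 (26.3% of their 38), while the cytosolic small subunit had 0 of 24, the mitochondrial large subunit 3 of 38 and the mitochondrial small subunit 1 of 23. The largest difference was that of Mrpl2, a core protein near the peptidyl transferase centre, at -0.24 and -0.73 in mouse 2, 1.14 and -0.68 in mouse 3, and 0.97 and -1.77 in mouse 4. Every Cy5 value lay above every Cy3 value, and the difference was 1.68 ± 1.13 (SD, n = 3 mice) with an adjusted p of 0.125 in limma. Mouse 2 had the smallest gap. Without it, over the 2 mice left, the difference was 2.27 and limma gave Mrpl2 an adjusted p of 0.00048. That fit rests on 2 mice and lacks the mouse with the smallest gap, so this p is given as a description. The range of features passed over the fits without 1 mouse is given at the end. The share in the fit without mouse 2 is not, so Mrpl2 was not set against the whole array there.

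**Figure D4:**
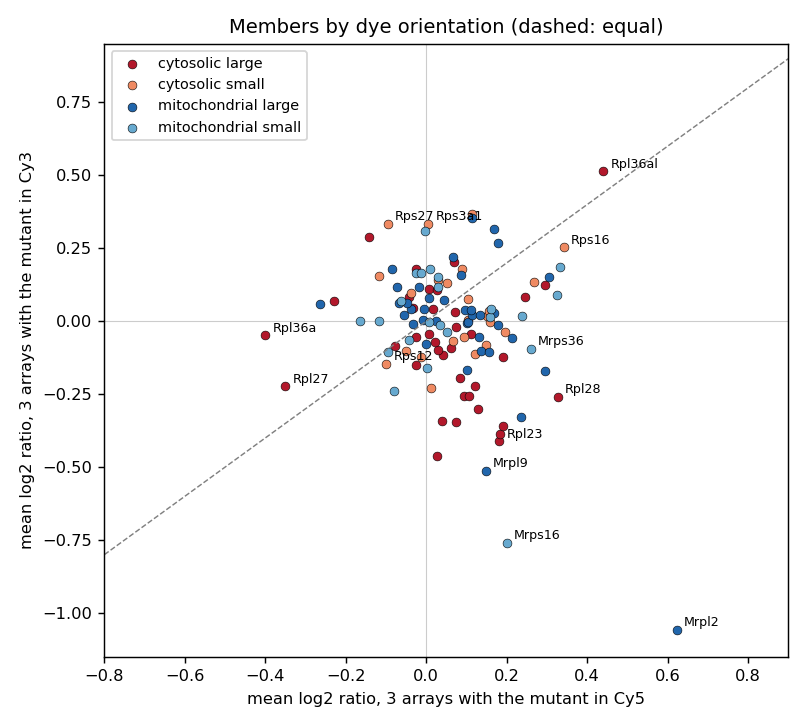
Mean log2 ratio of each member over the 3 arrays with the mutant in Cy5 (horizontal axis) against the 3 arrays with it in Cy3 (vertical axis), coloured by class; the dashed line marks equal values. Rpl36al and Rps16 lie near the line at positive values, and Mrpl2 lies at 0.62 and -1.06.

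Groups of arrays that did not overlap were counted as well. In 20 members (16.3%) all 3 Cy5 arrays lay above all 3 Cy3 arrays, as in 16.7% of all features. In 6 members (4.88%) all 3 lay below, as in 4.25% of all features. The cytosolic large subunit held 10 of the 20 (26.3% of its genes), Rpl6, Rpl9, Rpl10a, Rpl14, Rpl22l1, Rpl23, Rpl26, Rpl28, Rpl35 and Rpl37. Their products include Rpl10a, which forms the mobile stalk at the side where tRNA leaves, and Rpl23, which faces the small subunit. Rpl23 had -0.065, 0.38 and 0.23 with the mutant in Cy5 of mice 2, 3 and 4, and -0.17, -0.54 and -0.52 with it in Cy3, a difference of 0.59 ± 0.43 (SD, n = 3 mice). Rpl28 had 0.24, 0.24 and 0.50 in Cy5 and -0.38, -0.58 and 0.19 in Cy3, a difference of 0.59 ± 0.25 (SD, n = 3 mice). The Cy5 column of mouse 1, which had no part in the count, was above 0 in 10 of these 10 genes, from 0.015 to 0.46, and in 72.8% of all features with the same order of dyes. Among the members of other classes with this order, Mrpl9 lay at -0.082 there and the rest above 0, from 0.029 to 0.521. Mouse 1 has no separate Cy3 array, so its order of dyes was not tested.

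Opposite orders were seen in Rpl41, the smallest protein of the large subunit, with -0.081, -0.17 and -0.17 in Cy5 and 0.20, 0.46 and 0.21 in Cy3, a difference of -0.43 ± 0.18 (SD, n = 3 mice). Rps27 and Rps3a1 had the largest differences among cytosolic small-subunit genes, at -0.43 ± 0.43 and -0.33 ± 0.22 (SD, n = 3 mice), both with the widest gap in mouse 3 and at -0.20 and -0.20 without it. Mrpl9 differed by 0.66 ± 0.39, Mrps16 by 0.96 ± 0.73 and Mrps36 by 0.35 ± 0.25 (SD, n = 3 mice). In Mrps16 the dyes separated in mice 2 and 3, at 0.70 against -0.38 and 0.81 against -0.81, and not in mouse 4, at -0.91 against -1.09. From these ratios alone, dye bias of a probe and a sign convention of the columns cannot be told apart. The placeholders for a missing signal were positive on every Cy5 column and negative on the Cy3 columns of mice 2 to 4. What that sign says of the direction was not tested. Values over 1 in size on at least 1 array were found in 4 members (3.25%, against 5.15% of all features), Rpl36a, Mrpl2, Mrps10 and Mrps16.

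Repeated probes show how far 1 gene's value depends on the spot. Of the 123 genes 87 had 1 probe, 36 had at least 2 and 8 had at least 3. The median range between probe means of a gene was 0.141, and probes of 19 genes differed in sign. The 3 genes with a range over 0.3 were Mrps6, Rpl8 with probe means from -0.14 to 0.23, and Mrps18b from -0.24 to 0.073. Among the 8 genes with at least 3 probes Rpl4 had the narrowest range of means, its 3 probes at 0.18, 0.22 and 0.23. On single arrays these probes differed more. In the same order they stood at -0.367, 0.424 and 0.897 on the Cy3 array of mouse 3. On the Cy3 array of mouse 4 they stood at 0.421, 0.364 and -0.386. The 5 probes of Rps21, a protein of the small subunit needed for rRNA maturation, ran from -0.12 to 0.096 around a mean of 0.0040 ± 0.073 (SD, n = 3 mice). Rpl14, Rpl35 and Rps26, with 3 probes each, had gene means of -0.036 ± 0.083, -0.051 ± 0.039 and 0.029 ± 0.095 (SD, n = 3 mice), and Mrpl17 had -0.046 ± 0.13. Cytosolic ribosomal protein genes have many processed pseudogenes, whose symbols the probes do not name.

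**Figure D5:**
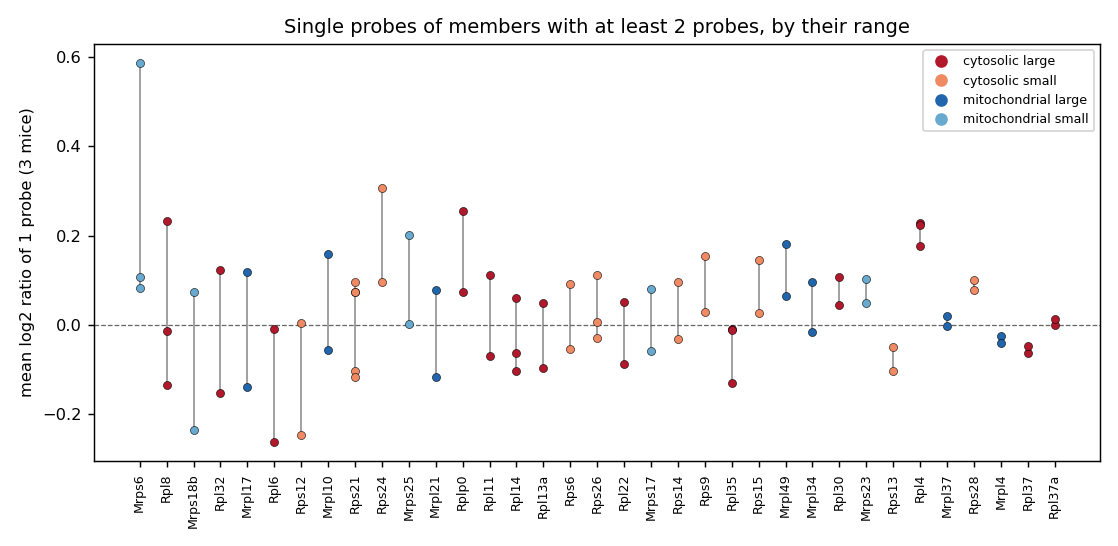
Mean log2 ratio of each probe (vertical axis, 3 mice) for members with at least 2 probes measured on all arrays (horizontal axis), ordered by range and coloured by class. Mrps6, at the left, spans 0.082 to 0.59, while the 3 points of Rpl4 lie between 0.18 and 0.23.

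Genes that build, regulate or work with ribosomes were read from the same fit. Some of them, such as Fau and Dap3, encode subunits under symbols that the rule did not match. Of 30 ribosome biogenesis factors measured, 1 passed the threshold, with a ratio above 0, and 0 passed below 0 (0.268% and 0.0655% of all features did). It was Ftsj3, a methyltransferase of pre-rRNA processing, with ratios of 1.02, 0.999, 0.70, 1.19, 0.99 and 1.02 and a mean of 0.99 ± 0.037 (SD, n = 3 mice), adjusted p 0.0098 in limma. Without mouse 4, and in the unmoderated test, 0 features passed, Ftsj3 among those lost. The list's median was 0.0067, against 0.023 over all features, and 16 of its 30 genes lay above 0. At an unadjusted p under 0.05 there were 3, Ftsj3, Ubtf, which opens rDNA for polymerase I, at 0.30 ± 0.16, and Bop1, a factor of large-subunit assembly, at 0.19 ± 0.12 (SD, n = 3 mice). The lowest of the list was Ebna1bp2 at -0.26. Translation factors, listed together with genes known for oligopyrimidine mRNAs, numbered 25, with a median of 0.021. In limma 0 passed the threshold and 1 had an unadjusted p under 0.05. That gene, Eif3c, a subunit of an initiation factor, had 0.28 ± 0.16 (SD, n = 3 mice).

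Mitochondrial translation genes numbered 22, with 0 past the threshold in limma and 2 at an unadjusted p under 0.05. Tars2 and Fars2, which charge threonine and phenylalanine onto mitochondrial tRNA, lay on opposite sides of 0, at -0.46 ± 0.24 and 0.27 ± 0.094 (SD, n = 3 mice). The list's median was 0.0041. Of 10 regulators of ribosomal protein synthesis, 0 passed in limma and 1 had an unadjusted p under 0.05, Mlst8, a subunit shared by both mTOR complexes, at 0.33 ± 0.057 (SD, n = 3 mice). Their median was 0.013.

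Markers of other cells in liver were also read. Over 7 lists, with 40 markers measured, 0 passed the threshold in limma and 7 had an unadjusted p under 0.05 (17.5%, against 9.92% of all features). The medians ran from -0.033 for 4 macrophage markers to 0.090 for 6 stellate and fibroblast markers, with hepatocyte markers at -0.0062, lymphocyte at -0.0058, red blood cell at -0.0057, dividing cells at 0.045 and cholangiocyte at 0.080. Those 7 lay on both sides of 0, with Krt7, Wfdc2 and Mcm5 above it and Cldn4, Cd5, Itgam and Dcn below it. Their means ran from -1.02 ± 0.60 in Dcn, the fibroblast proteoglycan decorin, to 0.81 ± 1.10 in Krt7, a keratin of bile duct cells (SD, n = 3 mice). For Krt7 the Cy3 array of mouse 2 stood at 3.96, and the other arrays ran from 0.003 to 0.445. In the list of Dcn 4 of 6 markers lay above 0. The markers' part in the ratios of the ribosomal protein genes was not tested.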

How the data were processed

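The deposited series table holds log2 ratios of 1 probe per array, made by the authors and read here as log2 from the values. Of scanning, background correction, normalization, scaling and centring the sources used here say nothing. Column medians were 0.023, -0.023, 0.054, -0.060, 0.069, 0.078, 0.081 and -0.031 (mice 1 to 4, Cy5 then Cy3 within each). Columns were used as deposited: the Cy3 column of mouse 1 is its Cy5 column with the sign turned, and the direction of mutant over pool is likely, not stated. Values over 15 in size, 1 repeated value per array on 19 to 83 probes, were dropped as placeholders. They stood at 16.015, 16.03, 16.224 and 16.063 on the Cy5 columns of mice 1 to 4. On the Cy3 columns of mice 2 to 4 they stood at -15.991, -16.035 and -15.996.

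Probes were named through the platform annotation (169 of 169 member symbols equal those of the GRCm38.p6 gene table) and averaged by symbol. Features needed both dyes in 3 mice. Per-mouse means and dye differences were tested against 0 with limma 3.58.1 in R 4.3.3 (lmFit, eBayes, two-sided), with Benjamini-Hochberg adjustment over 16796 features and a threshold of 0.05, after checks on simulated data. The number of arrays limits precision, and signal over background was not analysed here. The members and lists were chosen with earlier results of these data known. Named genes are Rpsa, the stalk genes, per class up to 4 members at each end with 1 sign on all arrays, the 2 with the largest dye difference, those with 3 or more probes and the 4 largest single values. Other named genes were chosen after their values were seen, as were all sequence patterns but the start run. Alternatives for class medians and signs were added after the data were seen. The others were mice, arrays, centring, scaling, direction, dyes, probes, missing values, membership, summary and test.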

Additional observations from a re-analysis of the deposited data

Results flagged for a closer look

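Across the 7 hybridisations, mouse 1 included through its Cy5 column, 43 sets of values were screened for a single array far from the rest, and chance marks about 1 in 20 such sets. That rate does not hold for members named for a large single value, such as Mrps10, and some sets share members. For Mrpl51 the Cy3 array of mouse 3 stood at 0.745, while the other 6 lay between 0.061 and 0.211. For Mrps10 the Cy3 array of mouse 4 stood at -1.04, with the others between -0.22 and 0.35; here 1 of 2 probes had a placeholder or no value on 4 of the 7 arrays. The spread over all 123 members (median absolute deviation, scaled to an SD) was 0.311 on the Cy3 array of mouse 3 and between 0.165 and 0.211 on the others. Over the 61 mitochondrial members it was 0.256 on that array and between 0.185 and 0.214 on the others. The same array had the widest spread over all features, 0.328, and its part in these values was not tested.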

How the results depend on the processing

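The count of ribosomal protein genes past the threshold against the pool stayed at 0 in every alternative but the one with a dye term and mice as a random block, which gave 1. For the dye difference it was 0 to 1 when mice were left out, the 1 without mouse 2, and 0 otherwise. The features past the threshold, 56 against the pool, were 0 to 24 without 1 mouse, 85 with mouse 1 added, 23 without the Cy3 array of mouse 3, 27 with centring and 27 with scaling. They were 26 with Cy3 columns turned, 18 with Cy3 arrays alone, 123 as single probes and 31 with at least 1 array per mouse. The block gave 132, a variance trend 26 and the test without moderation 0. With Cy3 columns turned, a gene's mean is its dye difference divided by 2. That test and its 26 features are therefore those of the dye difference. The 26 features of the dye difference became 0 to 398 without 1 mouse, 3 with centring, 1 with scaling, 87 as single probes, 0 with a variance trend and 0 without moderation.

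The cytosolic minus mitochondrial median was -0.0024 without the Cy3 array of mouse 3, 0.030 with Cy3 columns turned, 0.036 on Cy5 arrays alone and -0.065 on Cy3 arrays alone. Cytosolic large minus small was -0.0077, 0.048, 0.0038 and -0.115 in the same order. The dye difference of the first, 0.101 ± 0.047 (SD, n = 3 mice), was 0.011 with means over members in place of medians. Of 435 values of 29 named members under the alternatives, 374 lay within 1 SD, 60 moved by more and 1 passed the threshold. The cause of these changes was not tested.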
